A study of Mus musculus with 4 samples.

Results

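Elastase was set against buffer in the lungs of sham-operated mice, a comparison that rests on the 2 arrays titled sham/PPE and sham/PBS out of 4 arrays in the series. Both pools came from C57BL/6J mice that had undergone sham surgery, and they differed by the inhaled agent, PPE or PBS. The labels place sampling at 3 weeks and describe each array as lung RNA pooled from 5 mice, and they give neither age nor sex. PPE was read as porcine pancreatic elastase and ORX as orchiectomy, because the series title speaks of elastase-induced emphysema and testosterone deficiency. The other 2 arrays, ORX/PBS and ORX/PPE, hold the same agents after that operation and appear below only as values beside the sham pair. A pool cannot show how much mice of 1 group vary, and with 1 array a side no test was possible, so each value is a description of 2 pools.

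Elastase instilled into the airways cuts elastin, the rubber-like protein of alveolar walls, and leaves enlarged airspaces that serve as a model of emphysema. Neutrophils and macrophages enter such lungs and bring proteases of their own, among them matrix metalloproteinases and cathepsins, which serpins, stefins and cystatins hold in check. Lysyl oxidases cross-link new elastin on a scaffold of fibrillins, fibulins and microfibril proteins when elastic fibres are rebuilt.

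A level below is the processed signal of a gene's probe as a multiple of the 75th percentile signal of its array, and a difference is the log2 level on sham/PPE minus that on sham/PBS. Where 4 levels follow each other, the sham pair comes first and the ORX pair second, with PBS before PPE in each. The percentile was 850.1 on sham/PBS and 824.3 on sham/PPE in signal units. Of 26621 genes on the array, 19342 were well above background on both sham arrays and count as measured. Their median difference was 0.02, and the 5th and 95th percentiles were -0.50 and 0.52. Probes spotted 10 times gave a median SD of 0.05 for a difference, which covers the spots and not the mice. At the 2-fold threshold 179 genes were higher on sham/PPE, which is 0.925% of those measured, and 53 were lower, which is 0.274%. Lung markers fitted the labelled tissue, since Sftpc, a surfactant protein of alveolar type 2 cells, had levels of 501 on sham/PBS and 515 on sham/PPE. The secretoglobin Scgb1a1 of club cells stood at 456 and 465. In lung tissue measured in bulk, fewer cells of a type and less RNA per cell cannot be told apart.

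**Figure D1:**
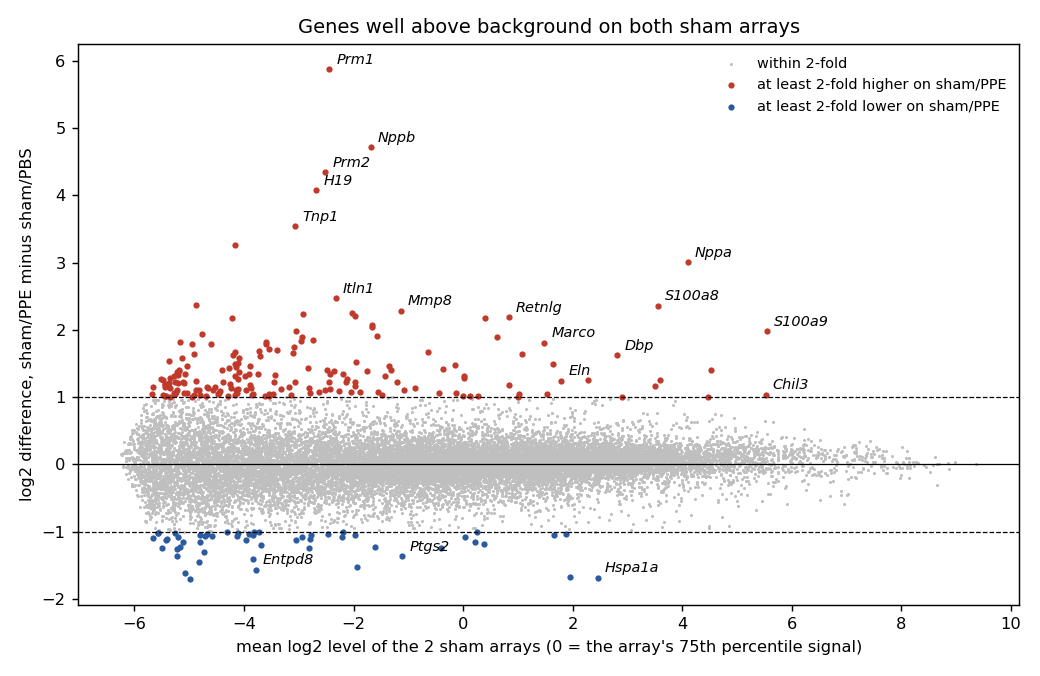
Log2 difference (sham/PPE minus sham/PBS) of each of the 19342 measured genes against its mean log2 level on the 2 arrays, with dashed lines at 2-fold. The 179 genes at least 2-fold higher reach 5.87 and the 53 lower ones reach no further than -1.68 among the genes named, and most of both lie at the dim left side.

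Genes of neutrophil granules and alarmins formed the group of immune genes with the highest list median, 0.98 over 19 measured members against 0.02 over all genes. Of these 19 members 9 passed 2-fold upwards, 0 downwards, and 10 lay between. S100a8, which with S100a9 makes the calprotectin that neutrophils release, had levels of 5.21 under PBS and 26.7 under PPE in sham mice and of 11.3 and 14.1 after ORX. Sham/PPE was the highest and sham/PBS the lowest of the 4 arrays, so the difference of 2.36 held a low control as well as a high elastase array. The probe of S100a8 lies on chromosome 3 from 90473778 to 90473837 on the plus strand of build mm9, and its 60 bases are shown because this gene leads the neutrophil group:
S100a8: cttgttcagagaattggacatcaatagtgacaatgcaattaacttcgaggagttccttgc

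Mmp8, the collagenase of neutrophil granules, had levels of 0.206 under PBS and 1.0 under PPE in sham mice and of 0.369 and 0.559 after ORX, a difference of 2.28 between the sham arrays. Retnlg, a secreted resistin-like protein of neutrophils, went from 0.835 to 3.79, with 1.45 and 2.61 on the ORX arrays. In both genes, as in S100a8, the ORX arrays lay between the sham arrays. S100a9 was higher by 1.98, Wfdc21, a small protein with a protease inhibitor fold, by 1.64, Mmp9, the gelatinase of the same granules, by 1.26, and Lcn2, which binds bacterial iron carriers, also by 1.26. Sham/PPE was the highest array for 14 of the 19 members and sham/PBS the lowest for 13, against 26.5% and 31.6% over all measured genes.

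Other neutrophil markers did not share that difference. Ly6g, a surface marker of neutrophils, had levels of 1.46 and 1.72 on the sham arrays, and Csf3r, the receptor for granulocyte colony-stimulating factor, 51.2 and 47.5. Camp, a cathelicidin stored in granules, stood at 0.119 and 0.13. The enzyme Elane, neutrophil elastase itself, had levels of 0.834 and 0.843. Apart from Elane these genes were chosen after their values were seen, to show the members that differed little.

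Receptors and chemokines that guide neutrophils were fewer among the higher genes, with 3 of 17 at least 2-fold higher, 0 lower and a median of 0.28. Cxcr1, a receptor for neutrophil chemokines, had levels of 0.0437 and 0.134 on the sham arrays and 0.0361 and 0.105 on the ORX arrays. Cxcr2, its relative, went from 0.183 to 0.481, and the formyl peptide receptor Fpr1 from 0.635 to 1.33. The chemokines themselves stayed within 2-fold, Cxcl1 at 0.55, Cxcl5 at -0.33 and Cxcl2 at -0.41. In the interleukin 1 family Il1r2, a decoy receptor, was higher by 1.67, while Il1b was at 0.69 and its natural blocker Il1rn at 0.75. Of that list 1 of 20 measured members passed 2-fold.

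In the alveolar macrophage list 5 of 22 members lay at or above 2-fold and none below it, and the median was 0.56. Marco, a scavenger receptor that binds bacteria and particles, had levels of 1.49 under PBS and 5.22 under PPE in sham mice and of 1.25 and 6.19 after ORX. Both elastase arrays stood above both buffer arrays, with no overlap. Chil3, a chitinase-like protein, did the same at 32.1 and 65.7 on the sham arrays and 40.8 and 83.1 on the ORX arrays. Fabp4, a fatty acid carrier of macrophages and fat cells, was different, since its 17.0 on sham/PPE stood above 7.59, 9.70 and 7.51 on the others. Ear1, a ribonuclease, had 2.0 on sham/PBS and between 4.16 and 4.98 on the other 3 arrays, so its difference of 1.05 was a low value on sham/PBS. That array was the lowest of the 4 for 17 of the 22 members. The defining markers Siglecf and Fabp1 were at 0.37 and 0.00.

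Lipid-associated macrophages take up lipid and debris through the receptor Trem2. Of their list 20 of 20 genes were above 0, 3 of them past 2-fold, at a median of 0.49. Sham/PBS was the lowest of the 4 arrays for 18 of the 20. Against that array the list medians were 0.29 on ORX/PBS, without elastase, and 0.40 on ORX/PPE. Trem2 had levels of 0.543 and 1.51 on the sham arrays and 0.773 and 1.96 on the ORX arrays. Gpnmb, a glycoprotein of lysosome-rich macrophages, went from 0.238 to 0.589 and from 0.275 to 0.783. For these genes the elastase arrays were again the higher ones in each surgery. Tyrobp, the signalling partner of Trem2, behaved otherwise, with 5.28 on sham/PBS, 10.6 on sham/PPE and 9.32 and 9.30 on the ORX arrays. Spp1, which encodes osteopontin, and Apoe, a lipid carrier, were at 0.57 and 0.38.

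**Figure D2:**
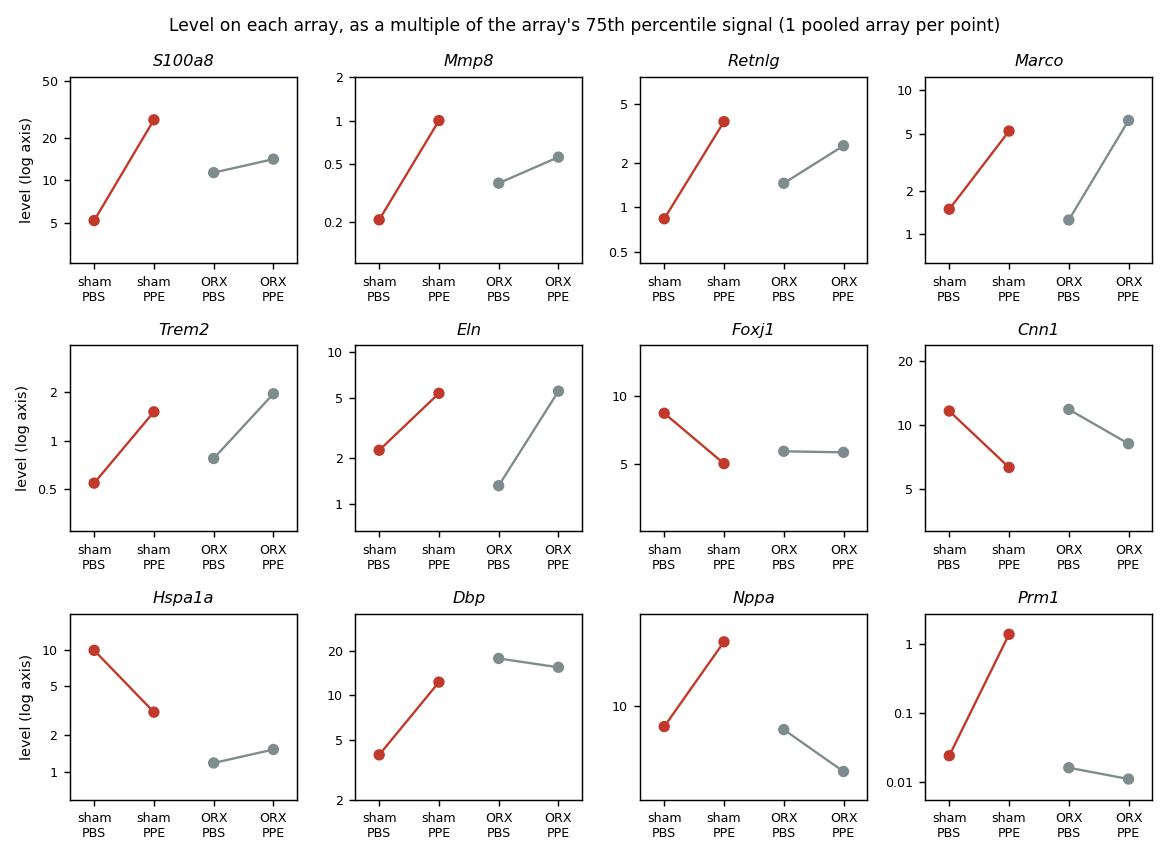
Level of 12 genes on each array, as a multiple of the array's 75th percentile signal on a log axis, with 1 pooled array per point and lines joining PBS to PPE within a surgery. S100a8, Mmp8 and Retnlg are highest on sham/PPE, Marco, Trem2 and Eln are higher on both elastase arrays, Hspa1a is highest on sham/PBS, and Nppa and Prm1 are high on sham/PPE alone.

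The B cell and MHC class II lists had higher medians on sham/PPE than on sham/PBS, and higher ones still on both ORX arrays. All 14 MHC class II genes were above 0 at a median of 0.39, and 1 passed 2-fold, the protease Ctss, which trims the invariant chain, at 15.6 and 31.5. On ORX/PBS and ORX/PPE the list medians against sham/PBS were 0.56 and 0.60, and sham/PBS was the lowest array for 12 of 14 members. The B cell median was 0.43, and 0.69 and 0.73 on the ORX arrays against the same sham/PBS array. Ms4a1, which encodes the B cell surface protein CD20, had 1.42 on sham/PBS, 2.85 on sham/PPE and 4.16 and 4.0 on the ORX arrays. All of these differences share the sham/PBS array, which is low in each. Other lymphocyte lists did not all share that order. T cell genes did, with a median of 0.14 between the sham arrays and of 0.42 on ORX/PBS and 0.36 on ORX/PPE against the same sham/PBS array. Of these 20 genes 12 were above 0, and 0 passed 2-fold either way. Natural killer and cytotoxic genes had a median of 0.24 between the sham arrays, and against the same sham/PBS array the ORX medians were 0.48 with PBS and 0.21 with PPE. For immunoglobulin and plasma cell genes these medians were 0.24, 0.20 and 0.61. The antibody heavy chain gene Ighg3 was higher by 2.20, at 0.118 and 0.544 on the sham arrays against 0.385 and 0.212 on the ORX arrays.

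Matrix metalloproteinases, which cut collagen and elastin, numbered 16, of which Mmp8 and Mmp9 passed 2-fold upwards and none downwards, with a median of 0.43. Mmp2, a gelatinase of fibroblasts, was at 0.79, Mmp7 at 0.73 and the stromelysin Mmp3 at -0.03. Mmp12, the macrophage elastase, had levels of 0.13 under PBS and 0.231 under PPE in sham mice and of 0.166 and 0.447 after ORX, which is 0.83 in sham and 1.43 in ORX mice. It was named after its values were seen, because it degrades elastin. Cathepsins, lysosomal proteases, had a median of 0.35, with 12 of 12 members above 0 and 1 past 2-fold. Sham/PBS was the lowest array for 10 of the 12, and against it the list medians were 0.25 on ORX/PBS and 0.43 on ORX/PPE. Ctsd went from 24.2 to 39.1 and, in the ORX arrays, from 28.1 to 46.2. Ctsk, an elastin-cutting cathepsin also named after its values were seen, went from 3.53 to 6.14 and from 3.98 to 7.71. ADAM and ADAMTS proteases had a median of -0.04 with 0 of 23 past 2-fold, the lowest being Adamts9 at -0.79.

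Stefins and cystatins, inhibitors of cathepsins, were the inhibitor list with the most members past 2-fold, 8 of 17, with 0 lower and a median of 0.53. Stfa2l1, a stefin of neutrophils, had levels of 0.154 on sham/PBS and 0.648 on sham/PPE, with 0.34 and 0.348 on the ORX arrays. Its relatives Cstdc4 and Stfa2 were higher by 2.04 and 1.91, and Stfa1 by 1.69. All 4 had the ORX arrays between the sham arrays, the same order as S100a8. Their probes share runs of at most 9 of 60 bases with each other, so they read different stretches. Whether a probe also binds RNA of the related genes was not tested. Ahsg, a fetuin of liver plasma that carries cystatin domains, was higher by 2.25, and Cst9 by 1.83. Slpi, an inhibitor of neutrophil elastase made by airway cells, was at 0.62, and Wfdc3 at -0.98, with other probes from -0.56 to 0.09, was the lowest of the WAP inhibitors, of which 2 of 18 were at least 2-fold higher.

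Serpina1 genes encode alpha-1 antitrypsin, the main plasma inhibitor of neutrophil elastase. Serpina1a had levels of 0.0608 under PBS and 0.286 under PPE in sham mice and of 0.0912 and 0.0273 after ORX, and Serpina1c had 0.0604, 0.239, 0.0758 and 0.0287. In both genes the elastase array was the highest of 4 in sham and the lowest of 4 in ORX mice. Their probes share a run of 47 of 60 bases, and a probe of Serpina1e, which had 0.0468, 0.219, 0.0599 and 0.0271, shares 29. A stretch of 30 bases from each probe is shown because it is what makes the 3 signals hard to separate, and capitals mark the base at which they differ:
Serpina1a: gtcatccttccttctgaattgggttccttC
Serpina1c: gtcatccttccttctgaattgggttccttC
Serpina1e: gtcatccttccttctgaattgggttccttT
The 3 probes lie on mm9 chromosome 12, starting at 105091819, 105133165 and 105185172, and RNA from 1 of these genes could bind at all of them. Probes of the same genes outside this stretch gave smaller differences, 0.93 for Serpina1a and 0.65 for Serpina1e. Serpina1b, measured by a separate probe, was at 0.20. Over Serpina1 and Serpina3 genes 2 of 14 were at least 2-fold higher, the median was 0.24, and sham/PPE was the highest array for 13 of 14. Liver plasma proteins, the usual companions of Serpina1 RNA, were 4 of 22 at least 2-fold higher with a median of 0.17. Albumin, Alb, was dim at 0.0999 and 0.208. The summed level of the list was 71.0 on sham/PBS and 70.6 on sham/PPE. The 4 members past 2-fold lay from 0.0608 to 0.121 on sham/PBS, so brighter members set that sum. Whether RNA of liver cells had a part in the Serpina1 values was not tested.

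**Figure D3:**
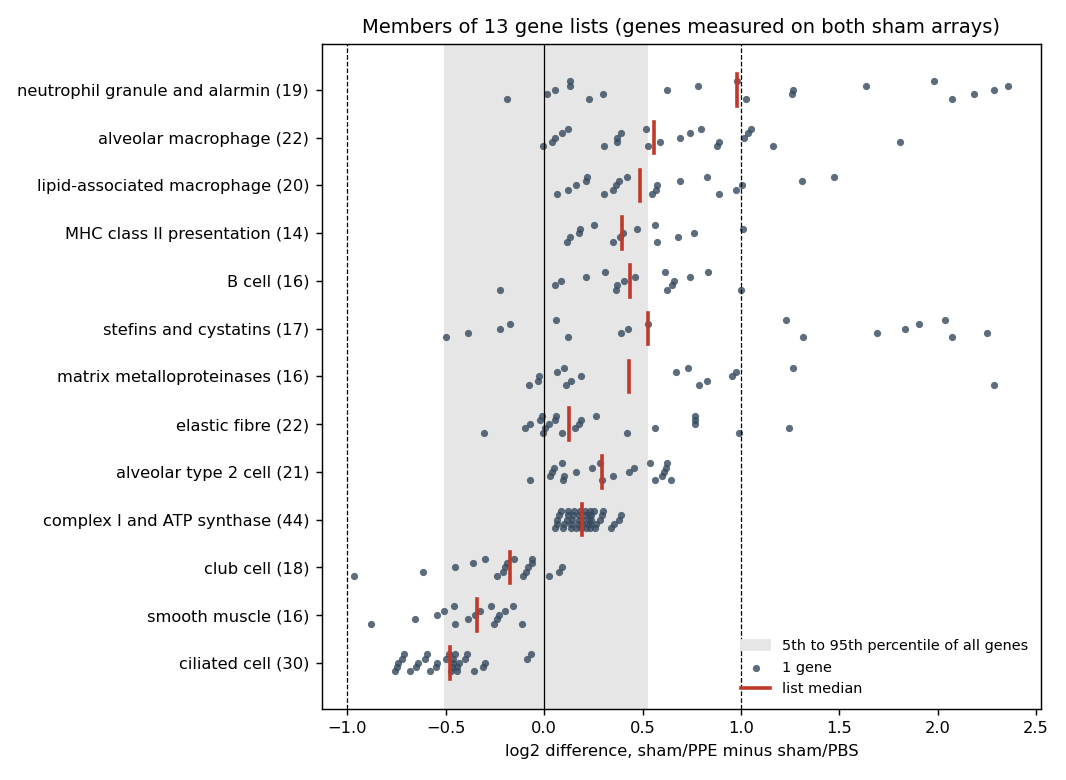
Log2 differences (sham/PPE minus sham/PBS) of the measured members of 13 gene lists, 1 point per gene, with the list median in red, the 5th to 95th percentile of all genes (-0.50 to 0.52) in grey and dashed lines at 2-fold. Neutrophil and stefin members reach beyond 2, all 44 complex I and ATP synthase members lie above 0, and all ciliated and smooth muscle members lie below 0.

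Elastic fibre genes had a median of 0.13, close to that of all genes, with 1 of 22 past 2-fold. That gene was Eln, elastin, with levels of 2.25 under PBS and 5.33 under PPE in sham mice and of 1.32 and 5.51 after ORX. The elastase arrays nearly met, whereas the buffer arrays lay apart, so the smaller difference in sham mice went with a higher buffer value. Its probe is on chromosome 5 from 135178554 to 135178613 on the minus strand of mm9, and another Eln probe differed by 1.07. The scaffold proteins were unequal, with Fbn1 at 0.42, Fbln1 at 0.06 and Fbn2 at -0.30. Members next to Eln in size were picked out after their values were seen. Mfap5, a microfibril glycoprotein, went from 6.97 to 13.8 and from 7.73 to 11.9 in the ORX arrays. Lox, the lysyl oxidase that cross-links elastin, went from 3.06 to 5.19 and from 3.74 to 5.85. Ltbp2, which binds microfibrils, went from 8.95 to 15.2 and from 8.86 to 17.0. These 3 stood higher on the elastase array in both surgeries, below 2-fold in sham mice. Mfap4, a microfibril glycoprotein whose difference of 0.77 matched those of Lox and Ltbp2, was the exception, going from 2.35 to 4.0 in sham mice and standing at 2.71 and 2.69 on the ORX arrays. Collagen chains had a median of 0.12 with 0 of 29 at least 2-fold higher, Col4a1 of basement membranes being at 0.77 and Col3a1 at 0.35. Col11a1 was lower by -1.23, at the dim levels of 0.0429 and 0.0182, and another probe of it was at 0.57.

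Epithelial lists differed in opposite directions by small amounts. Alveolar type 2 cells make surfactant, and 20 of their 21 genes were above 0 with a median of 0.29 and 0 past 2-fold. The surfactant proteins Sftpb and Sftpc were nearly equal on the sham arrays, at 0.03 and 0.04, while the lipid enzyme Fasn was at 0.64 and the alarmin Il33 at 0.62. Ciliated cell genes were lower without exception, 30 of 30 below 0 with a median of -0.48, yet 0 passed 2-fold. Foxj1, the switch for motile cilia, had 8.40 on sham/PBS, 5.02 on sham/PPE, and 5.70 and 5.63 on the ORX arrays. Dnah5, a dynein motor of the axoneme, had 3.18, 1.94, 2.26 and 2.60 in that order. Sham/PBS was the highest array for 29 of the 30 genes and sham/PPE the lowest for 26, against 29.4% and 18.8% of all measured genes. Club cells, the secretory cells of small airways, had 15 of 18 genes below 0 and a median of -0.17, and Upk3a, at -0.96, was the lowest of them.

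Mucous genes were mostly lower, with 11 of 16 below 0, but the largest differences were upward. The list median was -0.38, and against the same sham/PBS array it was -0.36 on ORX/PBS and -0.35 on ORX/PPE. The mucins Muc5b and Muc4 were at -0.45 and -0.39 and Muc5ac at 0.04, while 3 of 16 members were at least 2-fold higher. Itln1, an intelectin that binds microbial sugars, had 0.0847 on sham/PBS, 0.469 on sham/PPE, and 0.0686 and 0.217 on the ORX arrays. The anion exchanger Slc26a4 had 0.475, 1.27, 0.298 and 1.13. Both were higher on the elastase array of each surgery. Dmbt1, a secreted scavenger receptor protein, was the third, and it was high on sham/PPE alone, with 0.0334, 0.0937, 0.0229 and 0.0205. Smooth muscle genes were 16 of 16 below 0 with a median of -0.34 and 0 past 2-fold. Calponin, Cnn1, went from 11.6 to 6.31, and the myosin Myh11 from 1.13 to 0.718, while the ORX arrays held Cnn1 at 11.8 and 8.16. Endothelial genes had a median of 0.01, with Ackr1, a chemokine-binding receptor of venules, the 1 member of 25 past 2-fold at 1.20, with another probe at 0.36.

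Subunits of mitochondrial complex I and the ATP synthase were higher by little and by similar amounts. All 44 were above 0, against 54.0% of all measured genes, with a median of 0.19 and a range from 0.06 to 0.39, so 0 passed 2-fold. Sham/PPE was the highest array for 38 of the 44. On the ORX pair the median difference was -0.06. Reference genes had a median of 0.11, Gapdh being at 0.24 and Actb at 0.04, and a shift of this size lay close to that of the subunits. In the brightest of 4 equal groups of measured genes the lower and upper quartiles were -0.05 and 0.17. The 10 probes for added control RNA (spike-ins) had a median of -0.24 after the same scaling, larger in size than the subunits' 0.19.

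Among the 53 genes at least 2-fold lower, the brightest were the heat shock genes Hspa1a and Hspa1b, which encode inducible Hsp70. Hspa1a had levels of 9.85 under PBS and 3.07 under PPE in sham mice and of 1.18 and 1.52 after ORX. Hspa1b had 6.89, 2.16, 0.572 and 0.755. Sham/PBS stood above the other 3 arrays by more than 2-fold in both genes, and sham/PPE was the next. The probes share a run of only 5 bases, so they read different stretches. Whether each also binds RNA of the other gene was not tested. The co-chaperone Dnajb1 went from 17.2 to 9.02, with 7.24 and 9.31 on the ORX arrays, and Hsph1 from 14.2 to 9.72; both were named after their values were seen. The list as a whole had a median of -0.06, with 2 of 23 at least 2-fold lower and Hspa8, the constitutive relative, at -0.04. Against the same sham/PBS array the list medians were -0.41 on ORX/PBS and -0.47 on ORX/PPE, and sham/PBS was the highest array for 15 of the 23.

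The 250 bases before the start of both Hsp70 genes, from RefSeq on build GRCm38.p6, are shown because the genes differed together and heat shock factor acts on such promoters. Hspa1a covers chr17:34972157-34972406 and Hspa1b chr17:34959239-34959488, both on the minus strand, and capitals mark the heat shock element searched, GAANNTTC, which is its own reverse complement:
Hspa1a: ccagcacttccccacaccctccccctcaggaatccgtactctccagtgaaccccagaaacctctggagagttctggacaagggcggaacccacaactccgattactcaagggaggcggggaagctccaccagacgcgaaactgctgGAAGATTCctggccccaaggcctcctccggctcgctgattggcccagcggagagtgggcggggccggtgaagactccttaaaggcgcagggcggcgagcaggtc
Hspa1b: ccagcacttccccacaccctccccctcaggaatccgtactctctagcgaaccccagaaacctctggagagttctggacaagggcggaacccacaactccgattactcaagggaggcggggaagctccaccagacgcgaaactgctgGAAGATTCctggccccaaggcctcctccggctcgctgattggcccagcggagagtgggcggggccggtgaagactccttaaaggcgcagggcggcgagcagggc
Each window holds 1 match, and they differ at 3 positions. The element is present in 6 of 23 windows of the heat shock list, or 26.1%, and in 6.69% of 32851 windows of that length in the table. Windows of Dnaja1, Hspb1, Hspd1 and Hspe1 hold it too. Dnaja1, a co-chaperone, was lower like the Hsp70 genes but by less, at -0.54, whereas Hspb1 was at 0.09, Hspe1 at 0.03 and Hspd1 at -0.06 between the sham arrays. A match describes letters and not a bound site.

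Ptgs2, the inducible cyclooxygenase that makes prostaglandins, was lower by -1.37, at 0.742 on sham/PBS and 0.288 on sham/PPE, with 0.575 and 0.339 on the ORX arrays. It was the 1 member of 21 of its list past 2-fold on the low side, and 17 of the 21 were above 0. Other genes at the low end were dim, such as Nat3 at -1.61, Entpd8, which breaks down nucleotides, at -1.57, and Xk at -1.46. Entpd8 was the exception among them in the ORX arrays, where it had 0.264 and 0.164 against 0.125 on sham/PBS and 0.0421 on sham/PPE. A few brighter genes outside the lists were singled out after their values were seen. Opcml and Lsamp, adhesion proteins of the IgLON family, had 5.25 and 4.54 on sham/PBS against 2.56 and 2.19 on sham/PPE, and between 1.67 and 2.37 on the ORX arrays. Syn3, a synapsin of synaptic vesicles, had 1.96, 0.862, 0.649 and 0.832. Dll1, a Notch ligand, had 1.49, 0.704, 0.675 and 0.837. In these 4 genes sham/PBS was the high array and the other 3 lay close together by the probes used. Other probes did not all share this, being at 0.20 for Opcml, at -0.30 for Lsamp and from -0.39 to 0.80 for Syn3. Of the 53 genes 13 had sham/PBS at least 2-fold above each of the other 3 arrays, and 2 had sham/PPE at least 2-fold below them.

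Among clock genes, Dbp had a low value on sham/PBS against the other 3 arrays. Dbp, an output factor of the circadian clock, had 4.0 on sham/PBS, 12.3 on sham/PPE, and 17.7 and 15.5 on the ORX arrays, and another probe of it differed by 1.69 between the sham arrays. It was the 1 member of 15 in its list at least 2-fold higher. Against the same sham/PBS array the list medians were 0.28 for sham/PPE, 0.64 for ORX/PBS and 0.98 for ORX/PPE. Arntl, the activator that runs opposite in phase, had 1.0, 0.678, 0.22 and 0.194, so its wider gap lay between the sham pair and the ORX pair. Other members differed less between the sham arrays, and 11 of the 15 were above 0. Per3 was at 0.70, Per1, which also answers to glucocorticoids, at -0.02 and Cry1 at -0.09. Nr1d1 at 0.85, Nr1d2 at 0.69, Ciart at -0.26 and Nfil3 at -0.61 were named after their values were seen. The labels give no hour of sampling, and its part in these values was not tested. Within the 250 bases before the start, the E-box CACGTG is in 6 of 14 windows of this list (42.9%), against 6.02% of all windows, and the D-box TTANNTAA in 2 of 14 (14.3%), against 5.43%, on either strand. The window of Dbp holds neither, which says only that these letters are not in it.

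**Figure D4:**
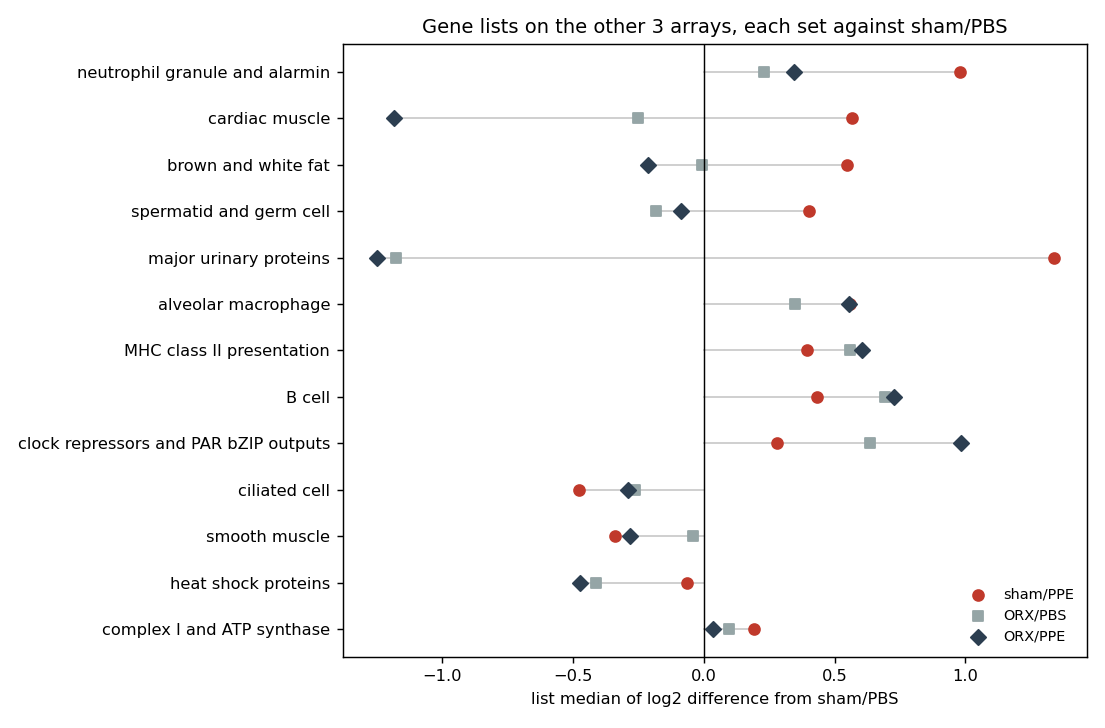
Median log2 difference from sham/PBS of 13 gene lists on sham/PPE, ORX/PBS and ORX/PPE, all sharing sham/PBS as the base. The neutrophil list is highest on sham/PPE (0.98), the clock, B cell and MHC class II lists are higher on both ORX arrays than on sham/PPE, and the cardiac and major urinary protein lists lie above 0 on sham/PPE alone.

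The largest differences of all belonged to genes of other organs and stood on sham/PPE alone. Prm1, the protamine that packs sperm DNA, had levels of 0.024 under PBS and 1.40 under PPE in sham mice and of 0.0161 and 0.011 after ORX, a difference of 5.87. Prm2 was higher by 4.34 and the transition protein Tnp1 by 3.54. Of 15 measured germ cell genes 6 passed 2-fold upwards and 0 downwards, with a median of 0.40. By the probes used, a further 6 of the 28 listed genes were above background on sham/PPE only, 1 on sham/PBS only and 6 on neither. Over all 26621 genes, 588 were above background on sham/PPE only and 580 on sham/PBS only. Germ cell genes on sham/PPE only included Smcp of the sperm mitochondrial capsule, at least 10.5-fold higher, and Ldhc, a lactate dehydrogenase of testis, at least 4.95-fold. Another Ldhc probe was above background on both sham arrays and differed by 0.67. Hils1, a spermatid histone that is not on the list, was above background on sham/PPE only as well and at least 4.56-fold higher. Each bound divides the bright value by the dim probe's own signal or by the lowest signal that counts as well above background there, whichever is larger. The third protamine, Prm3, was at 3.91 and 3.80, and the summed level of the list was 25.5 and 24.0. Prm1 made up 0.024 and 1.40 of these sums, so they say little of such dim members.

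Cardiac muscle genes were next. Mouse lung veins carry a sleeve of cardiac muscle, and the markers Myh6, Myl7 and Myl4 were bright on every array, with Myh6 at 12.6 under PBS and 21.2 under PPE in sham mice and at 8.98 and 4.33 after ORX. Nppa, the atrial natriuretic peptide, had 6.05, 48.6, 5.62 and 2.0, and another probe of it differed by 3.12 between the sham arrays. Nppb, a natriuretic peptide that ventricles secrete under load, had 0.0606, 1.59, 0.0642 and 0.0327, with another probe at 3.80. Of 31 members 5 were at least 2-fold higher and 0 lower, the median was 0.57, and the summed level was 112 under PBS and 218 under PPE in sham mice and was 95.2 and 53.6 after ORX. Nppa and Nppb therefore differed more than Myh6, Myl7 and Myl4 did, which stood at 0.67 to 0.75. The other members past 2-fold were Myl2 at 1.58, Mybpc3 at 1.31 and Cox8b at 1.26. Of the 31 members 5 were below 0, the lowest being Actc1 at -0.38. On the ORX pair the list median was -0.88.

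Fat genes showed the same array apart. Ucp1, the heat-producing uncoupler of brown fat, was above background on sham/PPE at 2.53 and not on sham/PBS, where its signal was 0.0122, so it was at least 207-fold higher, and its ORX values were 0.0146 and 0.0109. Cidea, a lipid droplet protein of brown fat, went from 0.621 to 2.79, with 0.482 and 0.461 on the ORX arrays. Adipoq was at 0.90, Plin1 at 1.07 and Lep at -0.05. Of 22 measured members 4 were at least 2-fold higher, with a median of 0.55, and the list summed to 69.3 under PBS and 114 under PPE in sham mice and to 85.3 and 68.0 after ORX. Major urinary proteins, products of liver and glands that androgens raise, had the highest median of any list, 1.34, with 6 of 11 at least 2-fold higher, at low levels. After normexp background correction that median was 0.76, below the 0.87 of the neutrophil granule and alarmin list, so the rank held for the uncorrected signal. Mup19 had 0.116, 0.294, 0.0425 and 0.0312, so both sham arrays stood above both ORX arrays. The list summed to 0.721 and 1.51 on the sham arrays and to 0.489 and 0.374 on the ORX arrays. For Mup3 the probe used was at 0.20 and another measured probe at 1.72. Whether a Mup probe also binds RNA of other Mup genes was not tested, so the 6 may not be separate readings. H19, an imprinted RNA of fetal and muscle tissue, was higher by 4.08 while its neighbour Igf2 was at 0.00. Dbh, which makes noradrenaline, was higher by 3.26 with 1 probe, but a second measured probe of it had the opposite sign, at -0.28.

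These organ genes were high on the same array as the neutrophil genes, and the part of other tissue in the pool in any lung result was not tested. Leaving out every member of the other organ lists left 155 higher and 53 lower genes of 19204. The 155 still hold organ genes that are on no list, such as the muscle gene Smpx. The count therefore cannot show what would remain without other tissue. Among the neutrophil, macrophage and stefin genes named above, Fabp4, Fabp1 and Ahsg are also members of an organ list, and S100a8, Mmp8, Marco and Trem2 are not. Of the 179 higher genes 64 had sham/PPE at least 2-fold above each of the other 3 arrays, 12 had sham/PBS at least 2-fold below them, and 103 had neither.

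How far the differences recurred after ORX was set beside the same measure over all genes. Of 162 higher genes measured on 4 arrays, 97 (59.9%) were also above 0 in ORX/PPE minus ORX/PBS, against 49.9% of 19029 genes. At least 2-fold higher there were 17 (10.5%), against 0.384% of all, and 7 (4.32%) were at least 2-fold lower, against 0.242%. The higher ones included Marco, Trem2, Gpnmb, Eln, Slc26a4, Itln1, Saa3, Il1r2 and Cxcr1, and the lower ones Nppa, Serpina1a and Alb. S100a8, at 0.32 in ORX mice, and Mmp8, at 0.60, were in neither group. The lower genes did not share this. Of 52 measured on 4 arrays, 30 (57.7%) were above 0 in the ORX pair, opposite to sham mice, against 49.9% of all. In that pair 1 (1.92%) was at least 2-fold lower, against 0.242%, and 1 (1.92%) at least 2-fold higher, against 0.384%. The 2 pairs of arrays share no array.

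Most of the genes counted were dim. When the measured genes were put into 4 groups of equal size by mean level, 2.21% of the dimmest group were at least 2-fold higher and 0.703% lower, and 0.248% and 0.062% of the brightest group. Normexp background correction, which pulls dim values together, left 11, 22, 11 and 9 higher genes in the groups from dimmest to brightest and 0, 3, 3 and 3 lower ones, 53 and 9 in all. Genes that passed 2-fold there as well included S100a8 at 2.29, Mmp8 at 1.96, Marco at 1.77, Trem2 at 1.34, Eln at 1.21, Nppa at 2.95, Prm1 at 3.84 and Hspa1a at -1.65. Cxcr1 came to 0.88, Dmbt1 to 0.80 and Col11a1 to -0.11. Of 40 genes past 2-fold that had another measured probe, that probe had the same sign for 36 and passed 2-fold for 18.

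**Figure D5:**
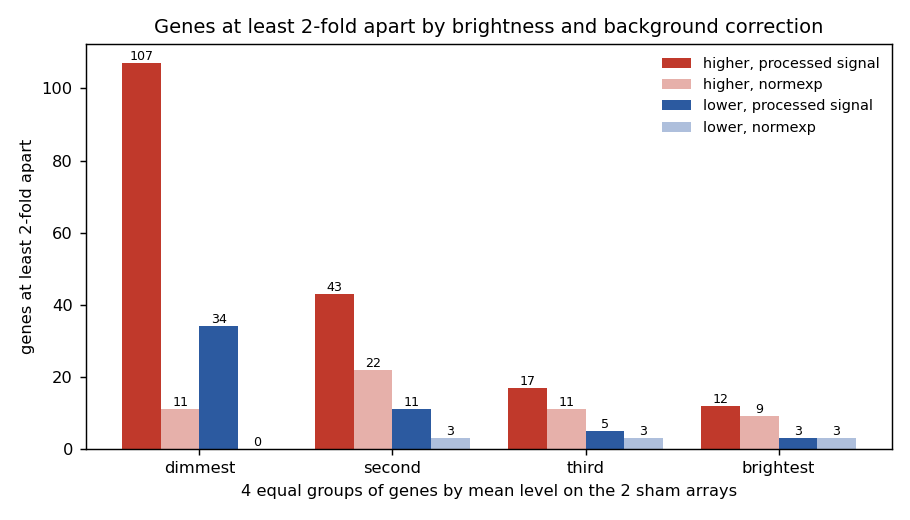
Number of genes at least 2-fold higher (red) or lower (blue) on sham/PPE in 4 equal groups of the measured genes by mean level, with the processed signal (dark bars) and after normexp background correction (pale bars). The dimmest group keeps 11 higher and 0 lower genes under normexp, and the brightest goes from 12 to 9 higher genes and keeps a count of 3 lower ones.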

How the data were processed

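Lung RNA was labelled with Cy3 and hybridised to Agilent 1-colour mouse arrays, 1 array per pool of 5 mice, per the labels' protocols. The authors deposited scanner files whose processed signal is a linear intensity with background subtracted and no scaling between arrays, per the file headers. Feature means and nearby background, used by normexp, are intensity on the same linear scale. Each spot also has 0 or 1 marks, deposited by the authors, for a signal over background, a saturated spot or an outlier. The headers name Feature Extraction 10.7.1.1, while the submitters' processing notes name 9.5.1.1, which could not be settled here. The value table deposited with the series, a linear intensity of unstated scale, served as an alternative.

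Control spots and outlier spots (31 of 59305 on sham/PBS and 40 on sham/PPE) were left out, and 0 spots were saturated. The log2 of each spot was taken, the log2 values of a probe's spots were averaged, and the array's 75th percentile over log2 spots was subtracted. A gene was its brightest unsaturated probe over the 4 arrays, and it counted if well above background on both sham arrays. Probe positions were read from the deposited files (build mm9). With 1 array per group nothing was tested, the number of arrays limits the precision, and 2-fold was the threshold. Genes named were the 12 highest and 12 lowest differences, up to 6 members of each of 63 lists per direction past 2-fold, otherwise a list's 4 largest differences, its first 4 members, and the 8 largest bounds per direction; genes known by a number and olfactory or vomeronasal receptors were not named. Genes outside this rule are marked as chosen after their values were seen. Members and lists were chosen with earlier results of these data known.

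Alternatives were normexp with an offset of 50 (limma 3.58.1, R 4.3.3), quantile normalization, median centring, probes above background on 4 arrays, no filter, probes averaged per gene, the value table, outlier spots kept, 1.5-fold, bounds added and organ lists left out. The remaining steps used pandas 2.3.3 and numpy 2.4.6 under Python 3.11.15, with matplotlib 3.10.9 for figures, and were tested on simulated data.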

Additional observations from a re-analysis of the deposited data

Results flagged for a closer look

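For 8 genes, 1 of them known only by a number and 7 named here, the difference between PPE and PBS was at least 2-fold in each surgery and opposite in sign, with 1 array per group, so the difference between surgeries was not tested. On the log2 scale the sham and ORX values were 3.00 and -1.49 for Nppa, 2.23 and -1.74 for Serpina1a, 1.99 and -1.40 for Serpina1c, 1.31 and -1.02 for the cystatin Cst13, 1.15 and -1.18 for Lrr1, 1.07 and -1.23 for the muscle gene Smpx, and 1.05 and -1.33 for albumin, Alb. Nppa was the only bright one of these, and Serpina1a and Serpina1c share most of their probe. Smpx and Lrr1 belong to no list.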

How the results depend on the processing

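The processed signal gave 179 higher and 53 lower genes at 2-fold. Normexp background correction gave 53 and 9, all of them among the 179 and 53, and no filter on dim probes gave 1207 and 784. A 1.5-fold threshold gave 773 and 641. Median centring, which raised the median of all genes from 0.02 to 0.09, gave 35 lower and 224 higher, and adding bounds gave 85 lower and 260 higher. Normexp read at 1.5-fold, chosen after seeing the data, gave 318 and 162. The other 6 alternatives left 155 to 193 higher and 46 to 56 lower. Of 77 named genes past 2-fold, 44 stayed past it under normexp, and none of the 77, and no list median past 0.2, changed sign under the 8 alternatives recomputed for them. No paired analysis was possible because each group is 1 array. Dim signal limits most calls, since 2.21% of the dimmest of 4 equal groups of genes passed 2-fold upwards against 0.248% of the brightest.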
